A study of Mus musculus with 32 samples.

Results

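A 1.4-Mb stretch of mouse chromosome 11, from 278 kb before Bcl11a to 1026 kb past it, holds the gene and a long run of chromatin-bound RNA far downstream, and its transcripts and DNA:RNA hybrid peaks are described here. Members were every row of the authors' deposited table of changed transcripts that carries the name Bcl11a or lies in this span, together with the MapR peaks of the span. They were chosen by name and position with the authors' fold changes in view, so those fold changes are given as a description, with no test. The rule found 11 of the 5723 listed transcripts, 541 of which are on chromosome 11, and 32 MapR peaks. All coordinates are on build mm10.

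The groups are mouse embryonic stem cells, either wild type (WT) or H1-TKO. H1-TKO is a triple knockout of genes for linker histone H1, the protein that binds the nucleosome where DNA enters and leaves. Both were grown in medium with serum and the cytokine LIF, and the labels name no other treatment. The transcripts come from the authors' comparison of 3 H1-TKO with 3 WT samples of cheRNA, the RNA that stays with chromatin when nuclei are extracted. The peaks come from MapR, in which RNase H fused to micrococcal nuclease (MNase) releases DNA at DNA:RNA hybrids (R-loops), with 2 such RNH libraries and 1 MNase-only control library per genotype. The labels do not say whether the knockout is 1 clone or whether replicates are separate cultures, so a p-value here covers the variation among the libraries at hand, whose source may be technical.

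BCL11A is a zinc-finger transcription factor that works with the BAF and NuRD chromatin-remodelling complexes. It is needed for B cell development, acts in developing neurons, and in red blood cell precursors silences the embryonic and fetal globin genes. Far downstream of many genes of this kind the genome holds long stretches without coding genes, from which long non-coding RNAs and enhancer RNAs can be transcribed and kept on chromatin.

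No transcript of the Bcl11a gene itself was listed as changed. The gene lies on the plus strand at chr11:24078056-24174123, 96.1 kb long, and none of the 18 annotated genes in the span, of which 3 are coding and 15 are not, had a listed gene transcript. The other coding genes are Papolg, a poly(A) polymerase, and A830031A19Rik. Non-coding genes with neither a listed transcript over them nor an RNH peak were Gm12063, Gm12064, Gm12065, Gm44381, Gm12067, Gm22787 and 4933430M04Rik. Since all listed values have an absolute log2 of at least 1.00 and genes below that are not in the table, the level of Bcl11a RNA in either genotype is not known from these data. Of all 21924 annotated coding genes, 4.14% had a gene transcript higher in TKO and 4.80% had a lower one.

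The promoter of Bcl11a is shown because a hybrid peak lies downstream of it. The RefSeq start used here lies farther along than the first base of the gene given above, so this promoter lies inside the gene as given there. It is the sequence before the RefSeq start, chr11:24080445-24080694 on the plus strand of GRCm38.p6, with CG steps in capitals, which read the same on both strands.
Bcl11a promoter: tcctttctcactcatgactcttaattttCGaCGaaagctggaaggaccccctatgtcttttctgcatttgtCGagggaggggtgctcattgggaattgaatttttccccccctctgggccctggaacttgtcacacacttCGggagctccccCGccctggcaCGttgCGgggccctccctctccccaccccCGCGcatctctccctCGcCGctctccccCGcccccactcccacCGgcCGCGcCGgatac
These 250 bases hold 16 CG steps. As many or more stand in the same window of 25.4% of 32851 RefSeq promoters, whose median is 6, and 92.1% of them hold at least 1. No RNH peak covered these bases. The nearest, at chr11:24081273-24082088 in an intron, lay 603 bp from the nearest annotated start of the gene, which is not its first base. From the first base of the gene as given above it lay 3217 bp away.

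All changed RNA around Bcl11a was of the class the authors name intergenic, and all of it was higher in TKO cells. The 11 transcripts had a median log2 TKO over WT of 5.32 in the authors' deposited table, from 1.52 to 8.15. Of all listed transcripts 60.1% were higher, of the 1937 intergenic ones 74.0%, and of those on chromosome 11 88.4%, so nothing is read from the direction. The median of the values in the authors' deposited table was 1.38 over all listed transcripts, 2.09 over intergenic ones and 1.88 over the 530 of chromosome 11 outside the members. The table has neither values per sample nor p-values. How many WT reads stand behind each fold is not in it.

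Bcl11a gave its name to 9 of the 11, all on the plus strand, the strand of the gene. They form 1 domain from 24629765 to 24927283, 297.519 kb long, of which they cover 220.144 kb, or 74.0%. The first piece starts 455.642 kb past the annotated end of Bcl11a, so the name marks a distant gene and not an RNA shown to come from it. Of 1906 intergenic transcripts whose named gene has a position, 3.31% lie farther from it than this piece, and the median distance is 19.6 kb. The share of 3.31% includes the other pieces of the domain. Of all bases of listed transcripts in the span, 92.8% belonged to these 9.

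**Figure D1:**
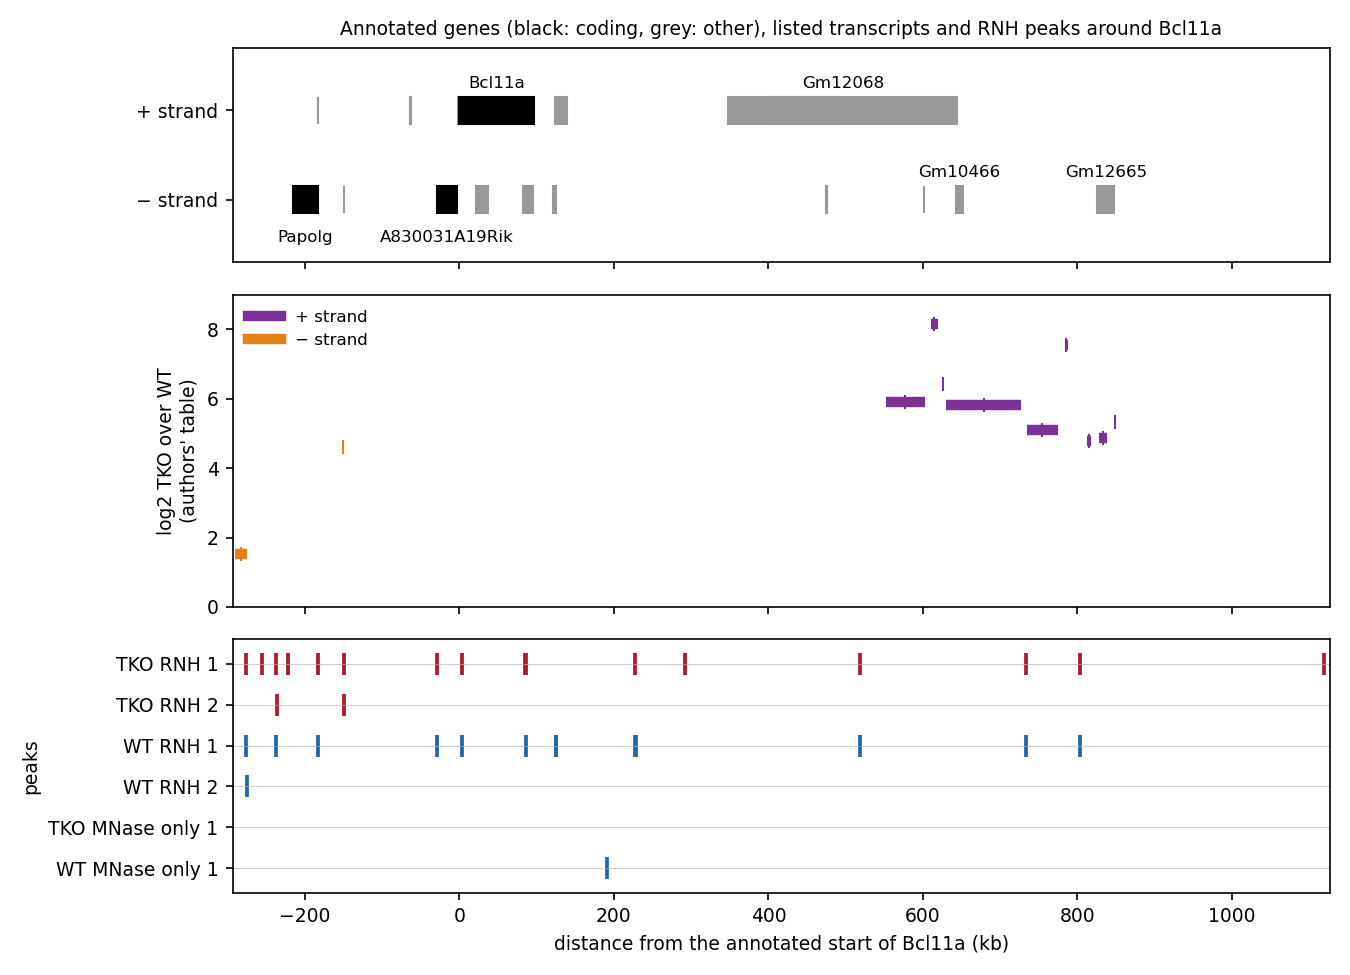
Map of the 1.4-Mb span, with distance from the annotated start of Bcl11a in kb on the x axis. From top to bottom, panels show the annotated genes, the log2 TKO over WT of each listed transcript in the authors' deposited table as a bar over its extent, and the peaks of the 6 MapR libraries as ticks; the 9 transcripts named for Bcl11a sit far to the right of the gene at 4.79 to 8.15, and the Papolg-named transcript on its left is at 4.61.

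From left to right the pieces of the domain differed widely in size and in fold. The first, chr11:24629765-24680368, is 50604 bp long and had a log2 TKO over WT of 5.89 in the authors' deposited table, or 59.4-fold. The second, chr11:24688136-24697194 and 9059 bp long, had the highest value of the 9 in the authors' deposited table, 8.15 or 283-fold, the rank of 8 among 1937 intergenic transcripts. The third, chr11:24702486-24705333 and 2848 bp long, stood at 6.44 or 86.6-fold in the authors' deposited table. Of these 3, the longest had the lowest value.

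Next, the fourth piece, chr11:24708657-24804691, is the longest of the 9 at 96035 bp and had 5.81 or 56.3-fold in the authors' deposited table, the median of the 9. The fifth, chr11:24812561-24852814 and 40254 bp long, had 5.11 or 34.5-fold in the authors' deposited table. The sixth, chr11:24861602-24866369 and 4768 bp long, had 7.54 or 186-fold in the authors' deposited table and ranked 14 among intergenic transcripts. It is the second highest of the domain.

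The last 3 pieces include the lowest values of the domain. The seventh, chr11:24890882-24895482 and 4601 bp long, had the lowest value of the 9 in the authors' deposited table, 4.79 or 27.6-fold. The eighth, chr11:24906338-24916882 and 10545 bp long, had 4.88 or 29.5-fold in the authors' deposited table. The ninth, chr11:24925854-24927283, is the shortest of the 9 at 1430 bp and had 5.32 or 40.0-fold in the authors' deposited table. Of all intergenic transcripts 10.8% had a value at or above the lowest piece and 4.49% at or above the median piece. Both shares include pieces of the domain. The SD over the 9 log2 values in the authors' deposited table was 1.18, which is a spread along the domain and not an error between samples.

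**Figure D2:**
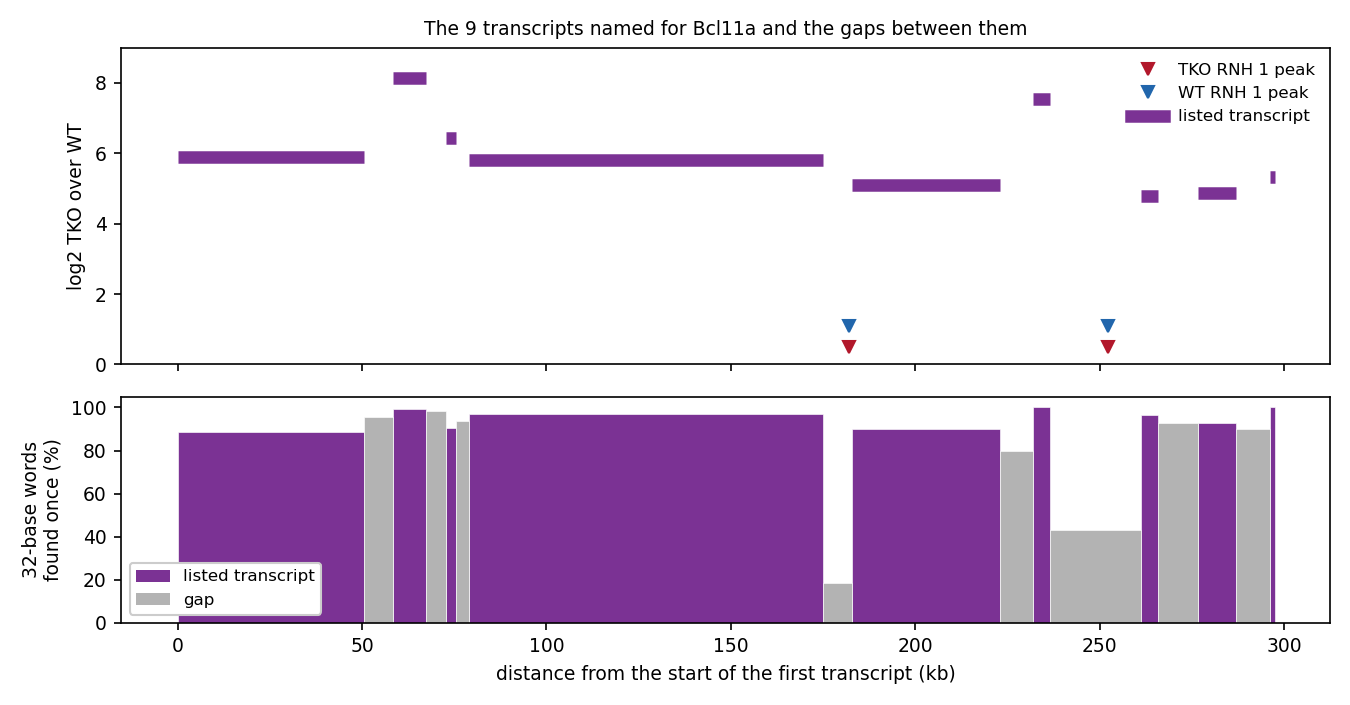
The 9 pieces named for Bcl11a and the 8 gaps between them, with distance along the domain in kb. The upper panel gives log2 TKO over WT of each piece in the authors' deposited table, highest at 8.15 in the second piece and lowest at 4.79 in the seventh. Triangles mark RNH peaks of replicate 1, which fall in 2 gaps. The lower panel gives the percentage of 32-base words found at 1 place in the genome, 18.6% and 42.9% in those gaps.

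Annotated non-coding genes overlap the domain on both strands. The lincRNA Gm12068, on the plus strand at chr11:24426246-24722646, overlaps the first 4 pieces on their own strand, and the other 5 lie beyond its end. One of its exons, chr11:24702768-24702835, lies in the third piece, and its last exon, chr11:24722590-24722646, lies in the fourth. On the opposite strand the lincRNA Gm10466 lies within the fourth piece, and the lincRNA Gm12665 overlaps the eighth and the ninth. The miRNA gene Gm25507, also on the minus strand, lies in the first piece. None of these genes has a listed transcript under its own name, so whether the pieces are parts of 1 RNA or of several is not known from the table.

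Comparable runs of neighbouring intergenic transcripts were looked for with gaps of at most 25 kb on 1 strand and in 1 direction, a limit chosen after the gaps at Bcl11a, 3.32 to 24.5 kb, had been seen. The table held 1565 such runs, 244 of them with 2 or more transcripts, and that of Bcl11a was the only run with 9 or more. With gaps of at most 10 kb the longest stretch at Bcl11a held 6 pieces, and 4 runs had as many or more. With 50 kb 3 runs had 9 or more. Both counts include the run at Bcl11a. The next by number had 8 pieces. One, on chromosome 3, is named for Gm5148 and Spry1, an inhibitor of growth factor signalling, spans 204 kb and had a median of 5.58 in the authors' deposited table. The other, on chromosome 4, is named for Fam92a and Triqk and was lower in TKO, with a median of -2.73 in the authors' deposited table. By length, 5 runs, that of Bcl11a included, were at least as long as its 297.519 kb.

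Counted by gene name, 1376 names stand on intergenic transcripts, with a median of 1 transcript each. Besides Bcl11a, 3 names had 9 or more, namely Bcat1 with 12, Sox5 with 10 and Slitrk2 with 9. Genes most like Bcl11a were taken as names with at least 5 listed transcripts, all higher, and the nearest median in the authors' deposited table, among 53 candidates. These were Gm5148 (7 transcripts, 5.76), Nr5a2 (5 transcripts, 5.61), Cdc20b (5 transcripts, 6.11), Bcor (5 transcripts, 5.49) and Arhgef28 (5 transcripts, 5.15), with medians from the authors' deposited table. Nr5a2 encodes a nuclear receptor of pluripotent and liver cells and Bcor a corepressor of BCL6. All transcripts of Gm5148 and Nr5a2 were intergenic, as were 4 of 5 for Bcor and 4 of 5 for Arhgef28. For Cdc20b 0 of 5 were, all being gene transcripts. Likeness here is a nearby median over listed transcripts of any class only.

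**Figure D3:**
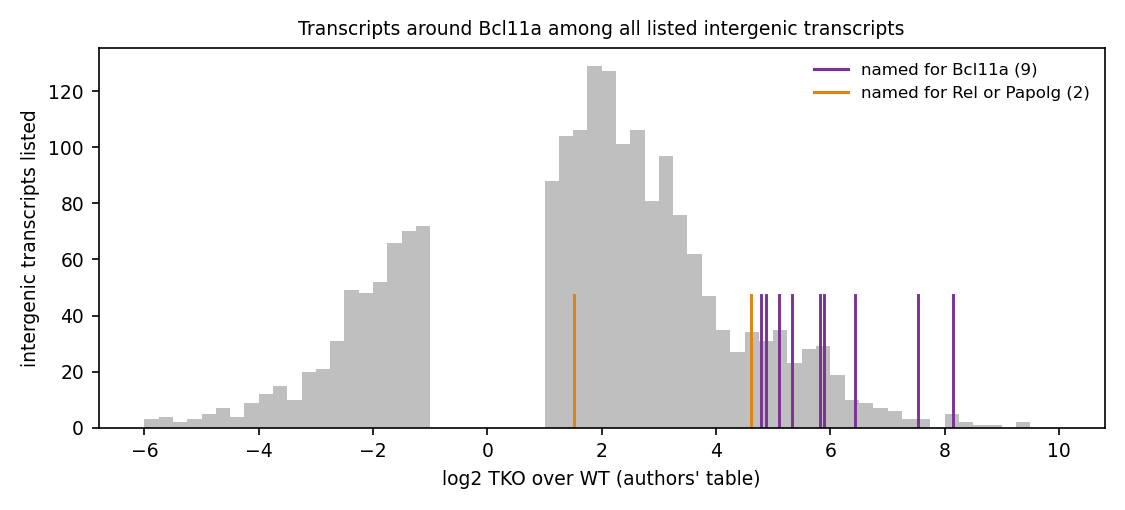
Distribution of log2 TKO over WT over the 1937 intergenic transcripts of the authors' deposited table (grey bars, number of transcripts), with the 11 around Bcl11a as vertical lines whose height has no meaning. The 9 named for Bcl11a lie from 4.79 to 8.15, in the right tail.

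The remaining transcripts of the span lie on the other side of Bcl11a, on the minus strand. The one named for Papolg, chr11:23927188-23927889, is 702 bp long and had a log2 TKO over WT of 4.61 in the authors' deposited table, or 24.4-fold. The one named for Rel, an NF-kappaB subunit, is 16332 bp long at chr11:23787283-23803614 and had 1.52 or 2.86-fold in the authors' deposited table. It crosses the left edge of the span, and it is the lowest of the 11. Just outside on the left, a gene transcript of 1700093K21Rik 281 kb from the edge had 2.66 and an intergenic one of the same name 278 kb away had 2.64 in the authors' deposited table. On the right the nearest listed transcript, on the 5′ side of Pnpt1, lay 3925 kb away and had 1.63 in the authors' deposited table, so the domain is followed by a long stretch with no listed transcript. In tiles of 1.4 Mb along chromosome 11 the median number of listed transcripts was 5, and 14 of 87 tiles held more than 11.

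Sequence of the 9 pieces was compared with that of their 8 gaps, which together measure 77.4 kb. Bases marked as repeats in the reference genome made up 22.2% of the pieces and 50.7% of the gaps, against 29.6% of all intergenic transcripts pooled and 43.7% of the 372 gaps within runs of the whole table. Of all 32-base words in the pieces 93.8% occur at 1 place in the genome, and of those in the gaps 68.3%. In the fourth gap 18.6% of words were unique and 85.2% of bases marked as repeats, and in the sixth gap 42.9% and 81.2%. The other 6 gaps were between 79.6% and 98.1% unique. Which reads the authors kept at repeated sequence is not given in the sources used here, and its part in the breaks between pieces was not tested.

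The GC content of the pieces was 40.9% and of the gaps 40.2%, against 43.8% of all intergenic transcripts. GGACT, the commonest form of the m6A methylation motif, was counted on the transcript's strand. The pieces held 184 of them, 0.836 per kb, against a pooled density of 0.889 per kb in all intergenic transcripts. It stood in 8 of the 9 pieces and in 94.1% of intergenic transcripts. A match is letters only, and no methylation value was used.

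Hybrid peaks in the span were few and were found in both genotypes. Replicate 1 of TKO had 16 of its 25392 RNH peaks there, replicate 2 of TKO 2 of 6458, replicate 1 of WT 13 of 22336 and replicate 2 of WT 1 of 6612. As a share of each library that was 0.0630% and 0.0310% in TKO and 0.0582% and 0.0151% in WT. The ranges of the genotypes overlap. The mean log2 share was 0.57 higher in TKO, or 1.49-fold, which a two-sided exact permutation test of 2 against 2 libraries did not separate from the spread (p = 0.667, smallest possible 0.333). It was 0.11 within replicate 1 and 1.03 within replicate 2. Chromosome 11 as a whole held 8.48% and 10.5% of TKO peaks and 6.58% and 6.06% of WT peaks, and set against chromosome 11 peaks alone the difference was -0.0022. Without replicate 2 of WT the difference was -0.40 and without replicate 1 of WT it was 1.55, so single libraries set both its size and its direction.

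The span was not dense in peaks. The 1.4-Mb tile median on chromosome 11 was 23 and 7 peaks in the TKO libraries and 15 and 4 in the WT libraries. More peaks than in the span were found in 57 and 67 of 87 tiles in TKO and in 45 and 66 in WT. In the MNase-only libraries the span held 0 of 582 peaks in TKO and 1 of 568 in WT, at chr11:24269577-24269764, which met no RNH peak, so 0 of the 32 RNH peaks met a control peak.

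**Figure D4:**
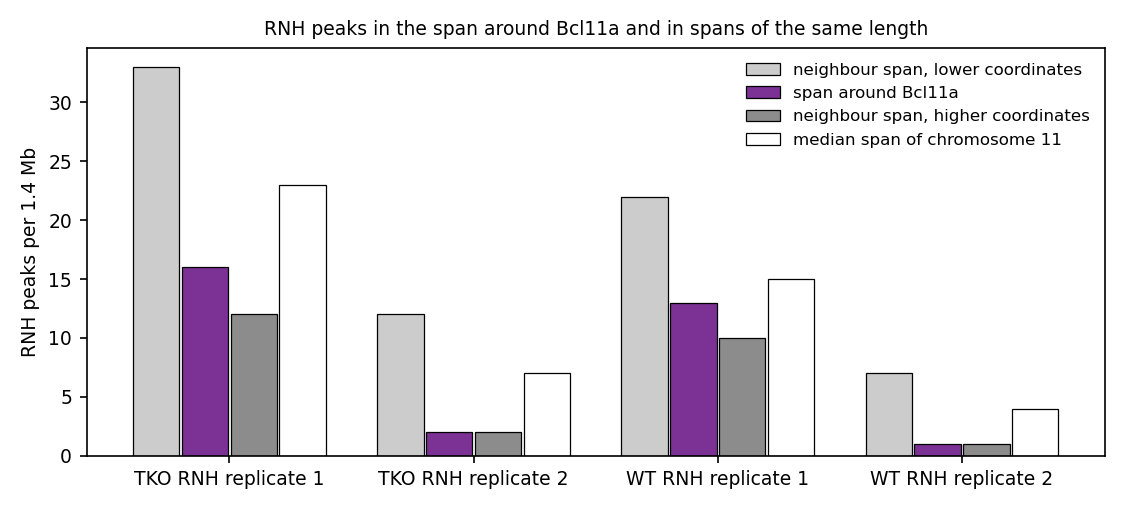
Number of RNH peaks per 1.4 Mb in each of the 4 RNH libraries, for the span around Bcl11a, the adjoining spans on either side and the median tile of chromosome 11. The span has 16 and 2 peaks in TKO and 13 and 1 in WT, below the median tile of each library.

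Overlapping peaks were merged into 19 regions, of which 10 had peaks of both genotypes, 6 of TKO only and 3 of WT only. All but 1 of these single-genotype regions rest on 1 library. In replicate 1, 10 of the 16 TKO peaks met a WT peak, against 57.6% over the whole library, and 10 of the 13 WT peaks met a TKO peak, against 65.2%. Of the 19 regions 9 lie in annotated genes, 4 in coding exons and 5 within 1 kb of an annotated start. Fold enrichment below is the authors' own value of each peak over its local background. Values of different libraries stand side by side, and their sizes are not compared between libraries.

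At Bcl11a itself 3 regions were found, all in replicate 1. The region in the intron after the promoter had a fold enrichment of 2.33 in TKO and 2.68 in WT. Only 0.484% of the peaks in that TKO list and 3.64% in that WT list had a lower value. Both peaks are thus among the weakest called, with a -log10 q of 2.66 and 3.57. The region's ratio of observed to expected CG steps was 0.734. A region at chr11:24163372-24163748, in a coding exon, had a TKO peak alone at 2.96. It was weak too, with 10.7% of the peaks in its list lower and a -log10 q of 2.69. The third, at chr11:24164258-24164971, lies in the coding exon too, where the antisense gene 4930538E20Rik runs on the other strand, and had 3.93 in TKO and 3.83 in WT. The bases around the summit of its TKO peak are shown, chr11:24164661-24164810 on the plus strand, which the WT peak also covers, with CG steps in capitals.
Bcl11a coding exon: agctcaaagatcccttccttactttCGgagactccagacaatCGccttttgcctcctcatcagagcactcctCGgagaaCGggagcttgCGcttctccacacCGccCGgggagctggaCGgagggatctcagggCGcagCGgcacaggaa
It holds 10 CG steps in 150 bases and is 60.0% GC. All 32-base words of these 3 regions were unique in the genome.

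The neighbouring coding genes had peaks in both genotypes. The region over the start of Papolg, a coding exon and the antisense gene Gm12061, chr11:23894630-23895534, had the highest fold enrichment of the span in replicate 1 of TKO, 6.57, and 4.51 in replicate 1 of WT. The region in the coding exon of A830031A19Rik, chr11:24049182-24049653, had 3.44 in TKO and 4.88 in WT. Replicate 1 of WT alone had 2 peaks near the lincRNAs Gm12065 and Gm12066, at 3.79 and 3.11. Between the genes of the span, replicate 1 of TKO alone had peaks at 2.96, 3.05, 2.89 and 4.09, the last of them with no unique word. A pair of neighbouring regions downstream of Gm12066 had 3.21 in WT alone and 3.24 in TKO with 3.77 in WT.

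A single region was shared by both TKO libraries without a WT peak, at chr11:23928065-23928737, with a fold enrichment of 4.54 and 5.45. Over the genome 10.8% of the 4055 regions shared by both TKO libraries had no WT peak, and here it was 1 of 2. It starts 176 bp upstream of the Papolg-named transcript and reaches over the pseudogene Gm12062. In all, 70.4% of its words were unique and 49.9% of its bases marked as repeats. The stretch common to both TKO peaks is shown, chr11:23928248-23928431 on the plus strand, CG steps in capitals.
TKO-only region: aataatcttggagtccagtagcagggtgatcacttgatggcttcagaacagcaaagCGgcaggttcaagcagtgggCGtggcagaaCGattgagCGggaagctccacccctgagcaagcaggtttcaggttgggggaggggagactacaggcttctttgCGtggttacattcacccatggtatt
It holds 5 CG steps in 184 bases. The other region with a replicate 2 peak of TKO, chr11:23840516-23841364, had 4.91 and 5.74 in TKO and 4.77 in replicate 1 of WT, and lies wholly in bases marked as repeats, where 6.60% of words were unique.

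Of the 11 transcripts 1 met an RNH peak, against 33.4% of the 1937 intergenic ones. It was the Rel-named transcript, whose region at chr11:23801769-23802674 had 4.96 in replicate 1 of TKO and 4.61 and 4.86 in the WT replicates. None of the 9 Bcl11a-named pieces met a peak of any library, over 220.144 kb. Counting a peak within 1 kb, 3 of the 11 had one, the others being the Papolg-named transcript and the fifth Bcl11a-named piece. A count of 0 in these lists does not show that hybrids are absent, since only peaks past the authors' threshold are in them.

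Both RNH regions inside the domain lay in its repeat-rich gaps, the fourth and the sixth, and each had a peak in replicate 1 of both genotypes. That in the fourth gap, chr11:24811348-24812093, ends 468 bp before the fifth piece and had 4.06 in TKO and 3.78 in WT. It was 75.2% marked as repeats, 29.2% of its words were unique, and the median word stood at 415 places. That in the sixth gap, chr11:24881601-24882301, ends 8581 bp before the seventh piece and had 5.02 in TKO and 4.26 in WT. It was wholly marked as repeats, with 6.57% of words unique and a median of 488 places.

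Each of the regions in the gaps holds a stretch found again in the same orientation. It is shown on the plus strand with the bases that differ between its copies in capitals. Whether the copies adjoin was not tested. In the fourth gap the copies start 206 bp apart.
Gap before the fifth piece, chr11:24811519-24811668: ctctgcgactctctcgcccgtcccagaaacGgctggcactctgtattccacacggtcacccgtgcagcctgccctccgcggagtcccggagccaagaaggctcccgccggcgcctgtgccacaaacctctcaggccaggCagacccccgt
Gap before the fifth piece, chr11:24811725-24811874: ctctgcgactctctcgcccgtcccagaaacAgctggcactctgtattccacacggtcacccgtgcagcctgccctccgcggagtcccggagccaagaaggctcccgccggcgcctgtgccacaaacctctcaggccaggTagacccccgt
In the sixth gap the copies start 214 bp apart.
Gap before the seventh piece, chr11:24881710-24881859: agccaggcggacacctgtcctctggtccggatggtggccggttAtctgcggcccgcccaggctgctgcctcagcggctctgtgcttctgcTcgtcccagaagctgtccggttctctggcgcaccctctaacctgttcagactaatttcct
Gap before the seventh piece, chr11:24881924-24882073: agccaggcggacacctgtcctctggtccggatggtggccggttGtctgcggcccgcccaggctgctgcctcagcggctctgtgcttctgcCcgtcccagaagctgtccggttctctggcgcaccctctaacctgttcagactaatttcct
In both gaps 148 of 150 bases are identical, or 98.7%. The windows shown are those with the most matches among all shifts tried within each region. The value is therefore a maximum and not the identity of whole copies. A region before the domain, chr11:24596589-24597093 in Gm12068, was also rich in repeats, with 98.4% of bases marked as repeats, 32.5% of words unique, and a fold enrichment of 4.11 in TKO and 5.31 in WT. In the span 5 of the 19 regions had under 50% unique words and 13 had at least 90%. Over whole libraries 17.3% and 10.2% of TKO RNH peaks and 14.6% and 23.6% of WT RNH peaks lay at least 95% in bases marked as repeats, against 26.1% and 27.5% in the MNase-only libraries of TKO and WT.

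**Figure D5:**
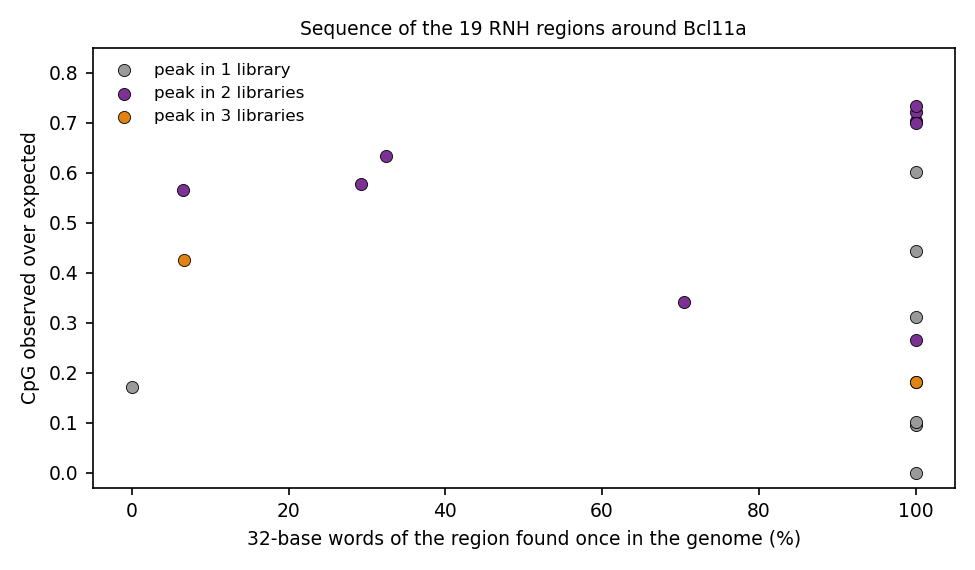
Each of the 19 RNH regions by the percentage of its 32-base words found at 1 place in the genome (x axis) and its ratio of observed to expected CG steps (y axis), coloured by the number of libraries with a peak. The 3 Bcl11a regions are at 100%, and those in the domain's gaps are at 29.2% and 6.57% with ratios of 0.577 and 0.566.

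A list of 57 genes held members of the BAF and NuRD complexes, erythroid regulators and 8 globin genes. It was drawn up from general knowledge of BCL11A, and not every gene on it is a partner of BCL11A. Of the 57 genes, 10 had a listed gene transcript, 4 higher and 6 lower, none of them a globin gene. Of 26 BAF complex genes 2 were higher and 1 lower. Smarca2, an ATPase of the complex, had 4 transcripts with log2 TKO over WT from 2.14 to 2.38 in the authors' deposited table, Dpf3, a subunit that reads histone marks, had 1.36, and Arid1b, a DNA-binding subunit, had -1.18 and -1.31. Of 14 NuRD complex genes 1 was higher and 1 lower, the ATPase Chd3 at 1.96 and Mta3 at -1.38 in the authors' deposited table. With transcripts of other classes 13 of the 57 were listed, the added ones being Arid2 (intergenic, 3.28 and -1.20), Actl6a (intergenic 1.77 and 5′ 2.67) and Mbd2 (antisense, -3.21), as log2 TKO over WT in the authors' deposited table. Of the genes already named, intergenic transcripts of Dpf3 and Chd3 had -2.72 and 2.38, and antisense ones in Mta3 and Myb 4.76 and 1.94, in the authors' deposited table.

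Of 9 erythroid regulators on the list 1 was higher and 4 were lower. Myb, a regulator of blood progenitors, had 1.07 in the authors' deposited table. Sox6, which represses embryonic globin with BCL11A, had -1.59, Lmo2, a bridging protein, -1.48, Tal1, a master regulator of blood, -1.68, and Zbtb7a, another globin repressor, -1.13 in the authors' deposited table. None of the 8 globin genes had a listed transcript of any class. These are counts among listed genes beside 4.14% and 4.80% of all coding genes.

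The cells were checked against markers. None of 12 embryonic stem cell genes, such as Pou5f1 and Nanog, had a listed gene transcript in either direction, so their level is not known from the table. RNH peaks lay within 1 kb of a start of 6 and 1 of these 12 in replicates 1 and 2 of TKO and of 8 and 1 in those of WT, of 4 and 2 of 5 neural genes in TKO and 3 and 1 in WT, of 2 and 1 of 4 B cell genes in each genotype, and of 0 of 3 erythroid genes in every library. Of all coding genes 50.2% and 14.6% had such a peak in TKO and 45.1% and 11.5% in WT, so these small counts do not tell the cell type. Among 5 neural genes Tubb3, a neuronal tubulin, was 6.81-fold and Pax6, a neural progenitor factor, 2.88-fold higher in TKO in the authors' deposited table, and the other 3 were not listed. Among 4 B cell genes Ebf1 was 3.59-fold lower in the authors' deposited table, and none of 3 erythroid genes was listed. In these bulk samples fewer cells of a type and less RNA per cell cannot be told apart, and the part of such cells in the RNA downstream of Bcl11a was not tested.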

How the data were processed

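Of the 32 samples, 6 cheRNA samples (through 1 table for the whole series) and 6 MapR libraries were used; the other assays were not analysed here. The submitters' processing notes name build mm10 and MACS2, DESeq2, bedtools, SAMtools, TopHat2 and BWA, with versions and roles not given in the sources used here. For cheRNA the authors deposited 1 log2 fold change per transcript, without p-values or sample values. Its direction is not stated. Gene transcripts of Hist1h1d, Hist1h1e and Hist1h1c were positive, and the sign of every value was therefore turned (-5.02, -4.83 and -3.61 as TKO over WT in the authors' deposited table), which is an inference. The authors deposited 1 peak list per MapR library, called separately, in which each peak has a fold enrichment (a ratio), a score, and its p and q on a -log10 scale. Depth is unknown, and no intervals for counting error are given.

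Members, gene lists and the rule for named genes were chosen with earlier results of these data known. The rule names every annotated gene of the span, every transcript that carries the name Bcl11a, the 5 largest in the span, 5 genes most like Bcl11a and list members with a listed transcript. Genes come from GENCODE M21 and sequences from RefSeq GRCm38.p6. A peak met a transcript by at least 1 bp. Repeats are bases in lower case in the genome, and the number of places of each 32-base word was counted on both strands of it. Log2 shares of peaks were compared by a two-sided exact permutation test. Alternatives changed the thresholds, the span's edges, the denominator and the libraries.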

Additional observations from a re-analysis of the deposited data

How the results depend on the processing

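The number of listed transcripts higher in TKO was between 9 and 13 in all alternatives, with 0 lower. Since all 11 were higher, settings that only dropped or merged members could not give a lower one. Only 0.5 Mb more on each side added transcripts, and it gave 13 higher and 0 lower. Their median log2 in the authors' deposited table, 5.32, was 5.57 with an absolute log2 of at least 2, with a width of at least 1 kb, or with only transcripts wholly inside the span, a setting chosen after seeing the data, 5.81 with the name Bcl11a alone and 5.11 with 0.5 Mb more on each side. The log2 share of RNH peaks, TKO over WT, was -0.0022 as a share of chromosome 11 peaks and ranged from -0.40 to 1.55 when each library was left out. It was 0.61 with a -log10 q of at least 5 and 0.12 with 0.5 Mb more on each side, and no alternative could pass a threshold, since the smallest possible p is 0.333. Same-numbered libraries are not stated to be paired. With the replicate block the difference was 0.57 (exact permutation of pairs, p = 0.5, the smallest possible), 0.11 within replicate 1 and 1.03 within replicate 2. Chosen after seeing the data, a peak within 1 kb raised the transcripts with a peak from 1 to 3. Also chosen so, runs with at least as many transcripts as that of Bcl11a, itself included, numbered 4 with gaps of at most 10 kb. With 50 kb they numbered 3. The cause of these shifts was not tested. Genes with a listed transcript on the list of BAF, NuRD, erythroid and globin genes numbered 13 with every class of transcript. Peak lists of replicate 2, with 6458 and 6612 peaks, limit what could be compared.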
